A study of Mus musculus with 2 samples.

Results

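The 44 genes that encode collagen chains were examined in differentiating mouse ESCs with and without an inducible system to delete Ino80. Ino80 is the catalytic subunit of a chromatin remodeler. Members were all rows of the deposited table whose symbol is Col, a type number, the letter a and a chain number, which gave 44 of 24354 genes. The control line (Diff–CONT) was homozygous for the floxed allele Ino80 2f/2f, without Cre, although its label reads WT. The knockout line (Diff–iKO) carried the same floxed alleles and ROSA26-CreER, a recombinase expressed in all cells that becomes active with 4-hydroxytamoxifen (4-OHTM). Embryoid bodies of both lines were moved to gelatin on day 4, and from the next day they were kept for 7 days in medium with FBS, BMP4 and 0.5 µM 4-OHTM. Both lines came from blastocysts, and the number of clones is not given in the sources used here. RNA of 1 culture per line was sequenced. With 2 libraries and no replicate, no difference below has a test, and Ino80 loss, the line and the culture cannot be told apart.

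Collagens are trimers in which each chain carries a long run of glycine-led triplets, and the chains wind into a triple helix in the endoplasmic reticulum before export. Fibrillar collagens pack into the fibrils of connective tissue and cartilage, type IV forms the sheet of basement membranes, FACIT collagens sit on the surface of fibrils, network-forming collagens build lattices, and transmembrane collagens are anchored in the cell surface. In early embryos type IV is made by endoderm and epithelia, while types I and III mark mesenchyme.

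Expression is given as FPKM, fragments relative to transcript length and library size, so that levels of genes of different length can be compared. Pairs of values are written in the order Diff–CONT, then the library labelled Diff–iKO, and log2 ratios are of the latter to the former. Whole fragments recovered from the steps between low FPKM values summed to 27710221 on genes for Diff–CONT against 21539538. They gave each log2 ratio a 95% interval (Clopper-Pearson), which covers counting error only and says nothing of the spread between cultures. Ino80 itself had an FPKM of 8.90 and 10.3 (log2 ratio 0.21, interval 0.11 to 0.31). It was not lower where it should have been deleted, and a value for the whole gene does not resolve the deleted exons, so every direction below is that of the library labelled Diff–iKO.

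Collagen transcripts made up 0.721% of all FPKM in Diff–CONT against 0.758%, and their summed FPKM was 3173 and 3560. The total differed by 1.12-fold, while single chains differed far more. Of the 44 genes, 33 reached an FPKM of 2 in at least 1 library, among them 3 (Col9a1, Col13a1 and Col25a1) in Diff–CONT alone, so that these had to be lower. The other 11 lay between 0.0548 and 1.63, and 0 were listed at 0. A fold change of at least 2 with an FPKM of at least 2 in 1 library, the cut-off used here, was passed upward by 2 collagen genes and downward by 6 in the library labelled Diff–iKO. That is 6.06% and 18.2% of the 33 genes, beside 6.73% higher and 8.39% lower among the 12376 genes of the whole table that reached the same FPKM. In bulk RNA, fewer cells of a type and less RNA per cell cannot be told apart. Col5a3 and Col7a1 rose, whereas Col2a1, Col3a1, Col8a2, Col9a1, Col25a1 and Col26a1 fell. Over the 35 collagen genes whose mean FPKM was 1 or more, the median log2 ratio of FPKM + 0.1 was -0.07, beside -0.01 over all 13145 such genes. The sign of the collagen median turned with the filter, to 0.0026 over the 30 genes with an FPKM of 2 in both libraries and over all 44.

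**Figure D1:**
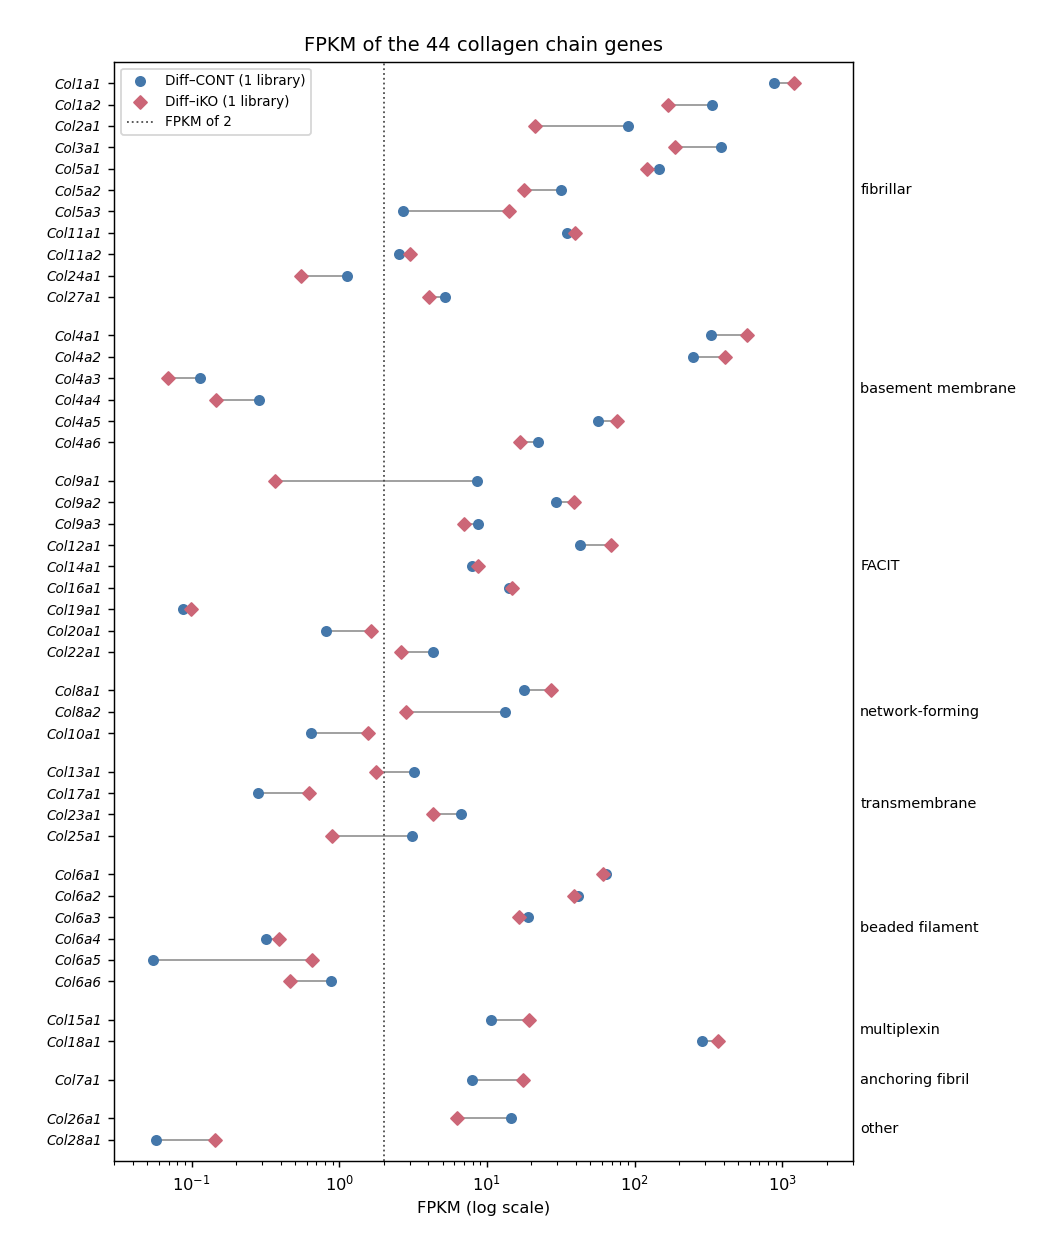
FPKM on a log scale (x axis) of each of the 44 collagen chain genes (rows, by class) in the Diff–CONT library (circles) and the library labelled Diff–iKO (diamonds), joined by a line, with an FPKM of 2 as the dotted line. Col9a1 (8.61 and 0.368) and Col6a5 (0.0548 and 0.657) have the longest lines, and Col1a1 is the most abundant in both libraries.

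Markers of several cell types also differed between the libraries. Those said to rise or fall passed the cut-off, as did 6.73% (higher) and 8.39% (lower) of all genes that reached the minimum. Each sum below is over the whole list, 8 markers or, for smooth muscle and trophoblast, 6, whether or not a marker reached an FPKM of 2. Of 8 markers of undifferentiated ESCs 7 rose, and their summed FPKM was 446 and 2849, with Pou5f1 at 60.8 and 247. Of 8 mesenchyme markers 4 fell (Pdgfra, Twist2, Prrx1 and Snai2), with sums of 679 and 617 in which Vim held 563 and 559.9. All 8 visceral endoderm markers fell, with sums of 327 and 11.6, and 3 of the 7 parietal endoderm markers that reached an FPKM of 2 fell (Sox17, Dab2 and Pth1r), with sums over all 8 of 357 and 292. These are cell types known to make collagens. Of the 3 chondrocyte markers that reached the minimum 2 fell (Sox9 and Hapln1), with sums over all 8 of 16.5 and 8.84 and Snorc listed at 0 in both libraries. Of 8 endothelial markers 6 fell and Pecam1 rose. Their sums of 59.4 and 71.6 were higher through Pecam1 alone (16.2 and 53.9). All 5 cardiomyocyte markers that reached the minimum fell, and the sums over all 8 were 67.4 and 12.7. In the lists so far, Twist2, Afp, Apoa1, Apob, Hnf4a, Amn, Sox17, Hapln1 and Matn3 reached an FPKM of 2 in Diff–CONT alone. The same holds for Tek, Tie1, Emcn, Erg, Myh7, Actc1 and Myl7, so all of these had to be lower. The remaining lists were less uniform. Of 8 epithelial markers 1 rose (Cldn4, sums of 1561 and 2107), and of the 5 smooth muscle and myofibroblast markers that reached the minimum 1 rose (Cnn1) and 1 fell (Postn), with sums over all 6 of 686 and 888. Of the 5 trophoblast giant cell markers that reached it 4 rose and Hand1 fell. Those 4 (Prl3d1, Prl2c2, Tpbpa and Prl3b1) reached it in the library labelled Diff–iKO alone, so they had to be higher. The sums over all 6 of 74.9 and 68.7 were lower through Hand1 alone (70.8 and 31.3), while Prl3b1 rose from 1.82 to 22.4. Among the markers past the cut-off, the intervals of Prrx1 (-1.17 to -0.85), Emcn (-2.03 to -0.96), Sox9 (-1.27 to -0.85) and Cnn1 (0.97 to 1.27) include a fold of 2. The part of these cell types in the collagen values was not tested.

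The sequence before the start site is shown for 5 genes past the cut-off, so that genes of opposite direction can be read side by side. RefSeq (GRCm38.p6) gave a window for 35 of the 44 genes, 38 windows in all, and none was matched for Col1a1, Col2a1, Col4a3, Col5a2, Col9a3, Col12a1, Col14a1, Col22a1 and Col26a1. Printed are the 250 bases upstream, on the strand of the gene, where they overlap no annotated exon. Capitals mark motifs of core promoters on either strand. CCAAT is bound by the factor NF-Y. GGGCGG is bound by Sp1 and its relatives. TATAAA is the usual form of the box that positions the polymerase. AAGATGG is part of the site of YY1, a partner of Ino80.
Col3a1, lower, chr1:45311288-45311537, plus strand: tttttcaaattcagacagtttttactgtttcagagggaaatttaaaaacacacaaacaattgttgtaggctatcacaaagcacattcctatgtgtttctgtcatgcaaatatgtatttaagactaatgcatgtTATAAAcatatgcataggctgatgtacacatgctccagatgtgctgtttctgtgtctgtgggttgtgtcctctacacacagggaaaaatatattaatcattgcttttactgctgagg
Col9a1, lower, upstream start, chr1:24177360-24177609, plus strand: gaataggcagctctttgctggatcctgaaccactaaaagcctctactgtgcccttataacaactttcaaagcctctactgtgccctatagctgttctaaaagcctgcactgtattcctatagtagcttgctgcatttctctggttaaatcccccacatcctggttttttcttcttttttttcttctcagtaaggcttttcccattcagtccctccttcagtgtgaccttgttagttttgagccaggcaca
Col25a1, lower, chr3:130180595-130180844, plus strand: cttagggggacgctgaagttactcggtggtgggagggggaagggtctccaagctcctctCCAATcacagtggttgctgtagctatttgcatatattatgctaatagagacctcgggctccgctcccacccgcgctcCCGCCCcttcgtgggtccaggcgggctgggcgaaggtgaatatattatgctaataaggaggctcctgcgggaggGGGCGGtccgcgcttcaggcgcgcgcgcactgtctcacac
Col5a3, higher, chr9:20815068-20815317, minus strand: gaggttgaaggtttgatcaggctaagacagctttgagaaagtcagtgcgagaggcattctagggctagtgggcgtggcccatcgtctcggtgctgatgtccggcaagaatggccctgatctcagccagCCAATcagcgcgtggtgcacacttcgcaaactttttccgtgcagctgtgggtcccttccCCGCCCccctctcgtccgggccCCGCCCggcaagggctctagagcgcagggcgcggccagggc
Col7a1, higher, chr9:108953336-108953585, plus strand: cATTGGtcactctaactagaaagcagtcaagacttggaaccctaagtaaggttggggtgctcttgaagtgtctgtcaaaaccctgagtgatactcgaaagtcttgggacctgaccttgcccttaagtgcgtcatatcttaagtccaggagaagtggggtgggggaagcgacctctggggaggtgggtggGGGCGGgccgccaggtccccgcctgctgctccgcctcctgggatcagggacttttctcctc

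The Col3a1 window held 1 TATAAA, near its middle and not beside the start site, in 35.2% G and C. The Col9a1 window held none of the motifs in 43.6% G and C. The windows of Col5a3 (62.8%) and Col7a1 (56.4%), which rose, each held 1 CCAAT, with 2 GGGCGG in the first and 1 in the second. The Col25a1 window, of a gene that fell, held the same letters, 1 CCAAT and 2 GGGCGG in 60.4% G and C, so they did not divide these genes by direction. It lies within the span that GENCODE gives the gene. Over the 38 collagen windows CCAAT was found in 34.2%, beside 33.8% of all 32851 windows. GGGCGG was found in 57.9% beside 32.7%, TATAAA in 13.2% beside 12.4%, and AAGATGG in 2.63% beside 4.49%. The windows were not matched for G and C content, and some of the collagen windows overlap exons. A match describes letters wherever they lie in the window, and is not a bound site.

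Fibrillar chains were the most abundant class and held 60.4% of the collagen FPKM in Diff–CONT against 49.9%. Of the 10 that reached an FPKM of 2, 1 rose and 2 fell, beside 6.73% and 8.39% of all genes. The class median was -0.31. Type I collagen, the main fibril of connective tissue, combines the products of Col1a1 and Col1a2 in 1 trimer. Col1a1 (chromosome 11, bases 94936224-94953042) had an FPKM of 879.6 and 1199 (log2 ratio 0.45, interval 0.44 to 0.46). Col1a2 (chromosome 6, bases 4504814-4541544) had 336 and 168 (-0.998, interval -1.02 to -0.97), which left it just outside the cut-off at 1.998-fold. The chains of type I thus lay on opposite sides of 0. The ratio of Col1a1 to Col1a2 was 2.62 and 7.13, a shift of 1.45 on the log2 scale (interval from a normal approximation on the log of the fragments 1.42 to 1.47). A ratio within a library does not depend on the scaling between libraries.

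Col3a1 forms type III collagen, which is laid down with type I in soft tissue. It was just inside the cut-off, and its FPKM fell from 386 to 187 (log2 ratio -1.04, interval -1.06 to -1.02), 2.06-fold. Col1a2 and Col3a1 kept nearly the same proportion, 0.870 and 0.897. Col5a2 lies tail to tail with Col3a1 on chromosome 1, 24.6 kb away, and encodes a chain of type V, the collagen that starts fibrils. Col5a2 had an FPKM of 31.9 and 17.7 (-0.85, interval -0.92 to -0.78). Its partner Col5a1 was closer to even, at 146 and 120.4 (-0.27, interval -0.30 to -0.25). The remaining type V chain went the other way. Col5a3 (chromosome 9, bases 20770050-20815067) rose from 2.71 to 14.0, 5.18-fold (log2 ratio 2.37, interval 2.23 to 2.52), the largest increase among the 33 genes. Its level was 0.0850 of that of Col5a2 in Diff–CONT against 0.793.

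**Figure D2:**
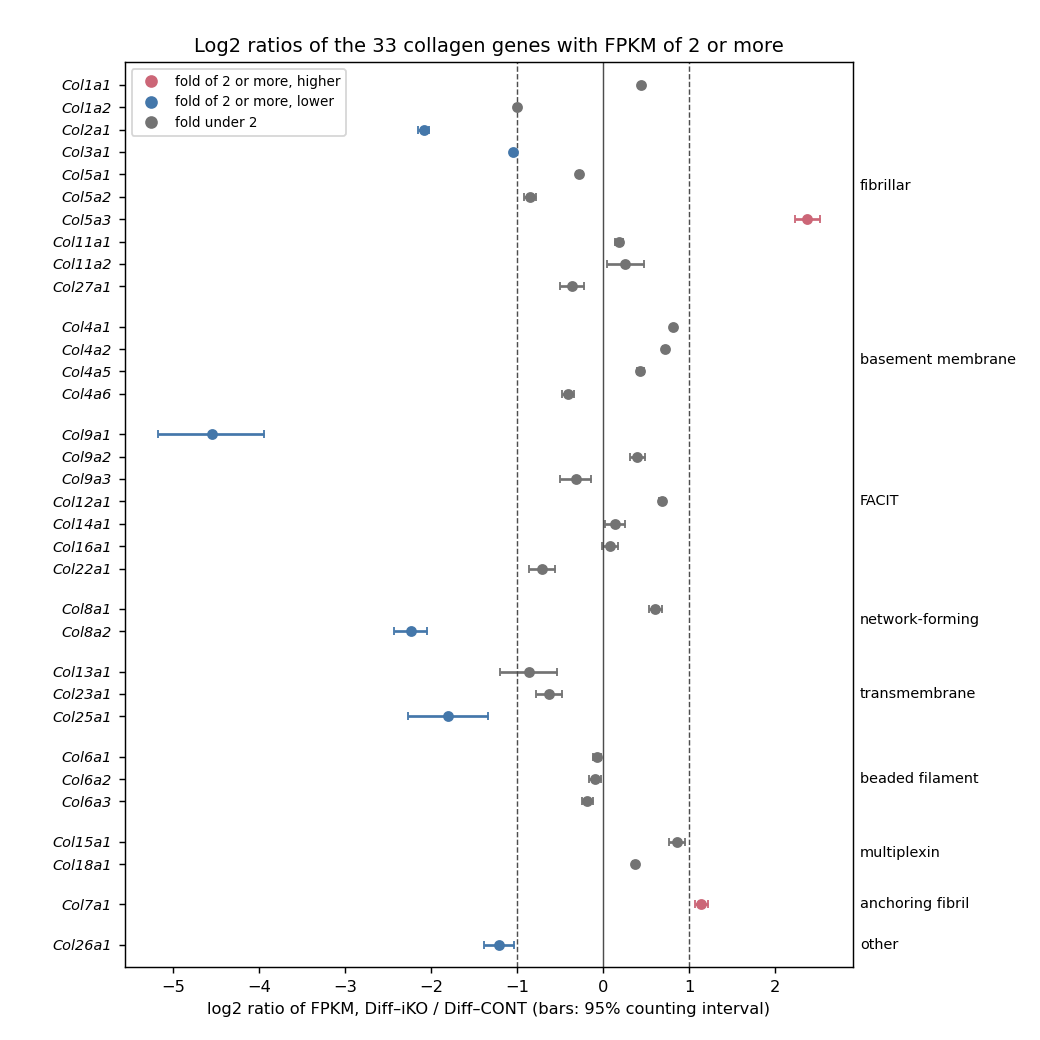
Log2 ratio of FPKM of the library labelled Diff–iKO to Diff–CONT (x axis) for the 33 collagen genes with an FPKM of at least 2 in 1 library, by class, with 95% counting intervals as bars and a fold of 2 as dashed lines. Col5a3 and Col7a1 lie beyond the right line and 6 genes beyond the left one, with Col9a1 farthest at -4.55.

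Col2a1 (chromosome 15, bases 97975602-98004695) encodes type II collagen, the main fibril of cartilage, which early embryos also make outside cartilage. Its FPKM fell from 89.9 to 21.2, 4.24-fold (log2 ratio -2.08, interval -2.15 to -2.02). Chains of type XI, which join type II in thin fibrils, were not lower with it. Col11a1 had an FPKM of 34.6 and 39.2 (0.18, interval 0.13 to 0.23). Col11a2 had 2.53 and 3.02 (0.26, interval 0.04 to 0.48). Col2a1 was thus 2.60 times as abundant as Col11a1 in Diff–CONT and 0.540 times as abundant in the other library. Of the minor fibrillar chains, Col27a1 had 5.23 and 4.06 (-0.36, interval -0.50 to -0.22), and Col24a1 stayed under the minimum at 1.12 and 0.552.

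Basement membrane chains held 20.6% of the collagen FPKM in Diff–CONT against 30.2%. Of the 4 type IV genes that reached the minimum 0 passed the cut-off, and their median was 0.57. Col4a1 and Col4a2, whose chains form the most widespread type IV trimer, lie head to head on chromosome 8 with an overlap of 22 bases. Col4a1 had an FPKM of 327 and 575 (log2 ratio 0.81, interval 0.80 to 0.83). Col4a2 had 248 and 407 (0.72, interval 0.70 to 0.73). Both were higher beyond counting error, and their ratio was 1.32 and 1.41. The X-linked pair Col4a5 and Col4a6 is also head to head, 1308 bases apart, but its members lay on opposite sides of 0. Col4a5 had 56.0 and 75.7 (0.43, interval 0.39 to 0.47). Col4a6 had 22.3 and 16.8 (-0.41, interval -0.48 to -0.33), which moved their ratio from 2.51 to 4.50. The pair best known from the kidney glomerulus was close to 0, with Col4a3 at 0.115 and 0.0689 and Col4a4 at 0.284 and 0.146. At 29 and 13 fragments, a difference in Col4a3 was not detectable (interval -1.80 to 0.25), while Col4a4, at 84 and 32 fragments, was lower beyond counting error (-0.96, interval -1.60 to -0.37).

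**Figure D3:**
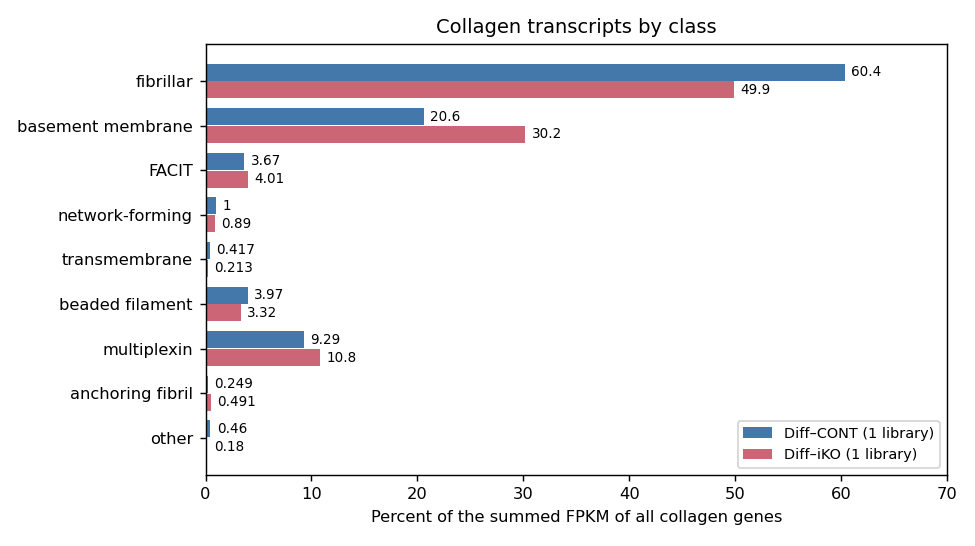
Percent of the summed FPKM of the 44 collagen genes (x axis, from 0) held by each class in Diff–CONT (upper bars) and in the library labelled Diff–iKO (lower bars), 1 library each. The fibrillar share is 60.4 and 49.9, and the basement membrane share is 20.6 and 30.2.

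The FACIT class held the collagen gene with the largest change of the 33. Type IX collagen coats type II fibrils and is built from the products of Col9a1, Col9a2 and Col9a3. The FPKM of Col9a1 (chromosome 1, bases 24177610-24252684) fell from 8.61 to 0.368, 23.4-fold (log2 ratio -4.55, interval -5.18 to -3.94), on 741 and 24 fragments. Col9a2 had 29.4 and 38.8 (0.40, interval 0.32 to 0.48). Col9a3 had 8.65 and 6.94 (-0.32, interval -0.50 to -0.14). Col9a1 thus parted from both partners, and Col9a3 stood at 1.00 times its level in Diff–CONT against 18.9 times. RefSeq windows for Col9a1 lie 17.6 kb apart, and an FPKM per gene does not say which start was used. The tail-to-tail neighbour Col19a1, 9205 bases away, was near 0 at 0.0868 and 0.0991. Other FACIT genes differed less. Col12a1, found on type I fibrils, had 42.7 and 68.6 (0.69, interval 0.65 to 0.72). Its relative Col14a1 had 7.88 and 8.69 (0.14, interval 0.02 to 0.26). Col16a1 had 14.1 and 14.8, a difference not detectable at this depth (interval -0.02 to 0.17). Col22a1, known from tissue junctions, was lower without passing the cut-off, at 4.29 and 2.62 (-0.71, interval -0.87 to -0.56), and Col20a1 stayed under the minimum at 0.815 and 1.63. The class held 3.67% of the collagen FPKM in Diff–CONT against 4.01%.

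Network-forming chains of type VIII, found under endothelial cells, also parted. Col8a1 had an FPKM of 17.9 and 27.3 (log2 ratio 0.61, interval 0.53 to 0.68). Col8a2 (chromosome 4, bases 126286793-126314330) fell from 13.2 to 2.81, 4.72-fold (-2.24, interval -2.43 to -2.05). Their ratio was 1.35 and 9.72, a shift of 2.84 on the log2 scale (interval 2.64 to 3.05). Col10a1, the collagen of hypertrophic cartilage, stayed under the minimum at 0.645 and 1.58.

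Of the 4 transmembrane genes 3 were lower and 1 was higher beyond counting error, and the class held 0.417% of the collagen FPKM against 0.213%. Col25a1, which neurons and developing muscle express, fell from 3.11 to 0.891 (log2 ratio -1.80, interval -2.27 to -1.34). Col13a1, a chain of cell adhesion sites, had 3.23 and 1.78, and its interval (-1.20 to -0.54) includes a fold of 2. Col23a1 had 6.63 and 4.30 (-0.62, interval -0.78 to -0.47). Col17a1, of the hemidesmosomes of skin, was the one higher, under the minimum, at 0.280 and 0.625 (1.16, interval 0.61 to 1.74).

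Type VI forms beaded filaments around cells, and 0 of its 3 genes that reached an FPKM of 2 passed the cut-off. Col6a1 had an FPKM of 64.3 and 61.3 (log2 ratio -0.07, interval -0.12 to -0.02). Col6a2 had 41.4 and 38.8 (-0.09, interval -0.16 to -0.03), and Col6a3 had 18.9 and 16.6 (-0.19, interval -0.25 to -0.12). The ratio of Col6a1 to Col6a2 was 1.55 and 1.58, a shift whose interval (-0.06 to 0.11 on the log2 scale) includes 0. Col6a3 was lower relative to both, with a ratio of Col6a1 to Col6a3 of 3.41 and 3.69 (shift 0.12, interval 0.04 to 0.20) and of Col6a2 to Col6a3 of 2.19 and 2.34 (0.09, interval 0.0014 to 0.18). The remaining type VI genes were under the minimum, with Col6a4 at 0.317 and 0.388, Col6a5 at 0.0548 and 0.657 (15 and 134 fragments) and Col6a6 at 0.877 and 0.465. Both multiplexins, which lie at basement membranes, were higher without passing the cut-off. Col18a1, the source of endostatin, had 284 and 367 (0.37, interval 0.35 to 0.39). Col15a1 had 10.6 and 19.2 (0.86, interval 0.77 to 0.96). Col7a1 (chromosome 9, bases 108953586-108984875) encodes the chain of the fibrils that anchor epithelium to the tissue below. It rose from 7.90 to 17.5, 2.21-fold (1.14, interval 1.07 to 1.22). Col26a1 fell from 14.5 to 6.27 (-1.21, interval -1.39 to -1.04), and Col28a1 was near 0 at 0.0576 and 0.143.

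**Figure D4:**
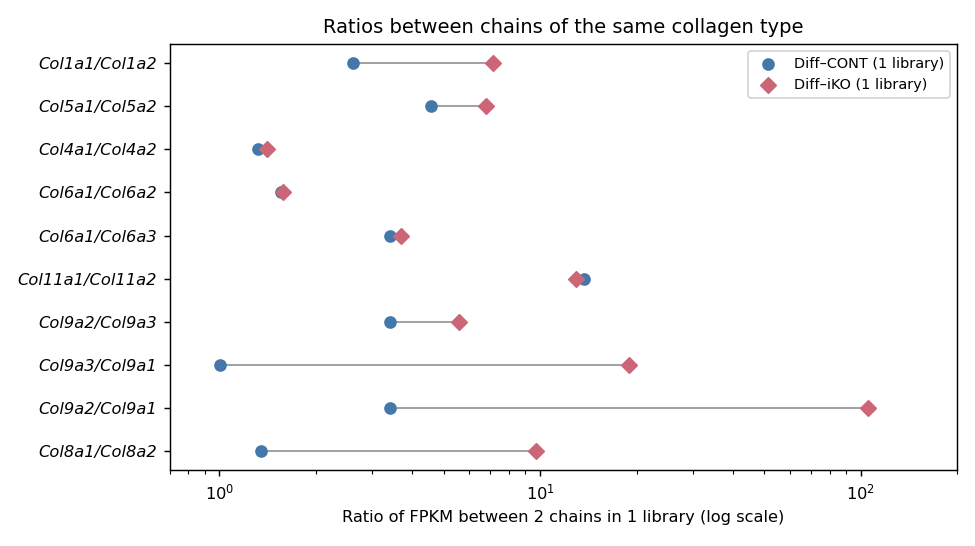
Ratio of FPKM between pairs of chains (x axis, log scale) within Diff–CONT (circles) and within the library labelled Diff–iKO (diamonds). Col1a1/Col1a2 moves from 2.62 to 7.13 and Col8a1/Col8a2 from 1.35 to 9.72, while Col6a1/Col6a2 is 1.55 and 1.58.

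Lists of 67 genes that modify, fold, process, crosslink, bind or degrade collagen, or accompany Col2a1 in cartilage, were set beside the chains. Of the 50 that reached an FPKM of 2, 5 rose and 8 fell, 26% beside 15.1% of all genes in either direction. Among those that fell, Colgalt2, Adamts3, Hapln1 and Sox6 reached it in Diff–CONT alone, so they had to be lower. With an FPKM of 2 in both libraries, 5 rose and 4 fell. Among 14 genes of prolyl and lysyl modification 1 rose and 2 fell. Crtap, a partner of prolyl 3-hydroxylase, rose from 49.4 to 138 (log2 ratio 1.49, interval 1.41 to 1.56). P3h2, a prolyl 3-hydroxylase, fell from 21.3 to 7.33 (-1.54, interval -1.68 to -1.39). Colgalt2, a collagen galactosyltransferase that reached the minimum in Diff–CONT alone, fell from 3.12 to 0.899. The most abundant gene of this list, P4hb, a subunit of prolyl 4-hydroxylase, had 517 and 625. In folding and export, 0 of 10 genes passed the cut-off. The collagen chaperone gene Serpinh1 had 747 and 764, and Sparc, which encodes a collagen-binding protein, had 708 and 1244 (0.81, interval 0.80 to 0.83). In crosslinking, 0 of 5 passed, with the lysyl oxidase gene Loxl2 at 141 and 187.

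Genes that cut the propeptides off procollagen, or enhance the cutting, changed in both directions. Of 7, 3 were higher and 2 lower past the cut-off, beside 6.73% and 8.39% of all genes. Adamts2, an N-proteinase of fibrillar procollagens, fell from 13.6 to 2.94 (log2 ratio -2.21, interval -2.35 to -2.07). Adamts3, of the same family, fell from 3.10 to 0.906, and it reached the minimum in Diff–CONT alone, so it had to be lower. Adamts14, also of this family, rose from 2.14 to 5.67 (1.40, interval 1.21 to 1.60). The C-proteinase gene Tll1 rose from 2.01 to 4.46, and its interval (0.93 to 1.37) includes a fold of 2. The enhancer gene Pcolce2 rose from 2.58 to 7.19 (1.48, interval 1.29 to 1.68). Bmp1, the most abundant C-proteinase gene, had 116 and 232 and was just outside the cut-off at 1.996-fold. Among 6 receptor and uptake genes 1 rose and 1 fell. Itgb1, the beta chain of the collagen-binding integrins, rose from 345 to 717 (1.06, interval 1.04 to 1.08). Mrc2, which takes up collagen fragments, fell from 45.6 to 22.5, and its interval (-1.08 to -0.96) includes a fold of 2. The receptor kinase gene Ddr1 had 92.1 and 119. Of 3 degrading enzymes 0 passed the cut-off, and Mmp2 had 174 and 151 and Mmp14 173 and 184.

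**Figure D5:**
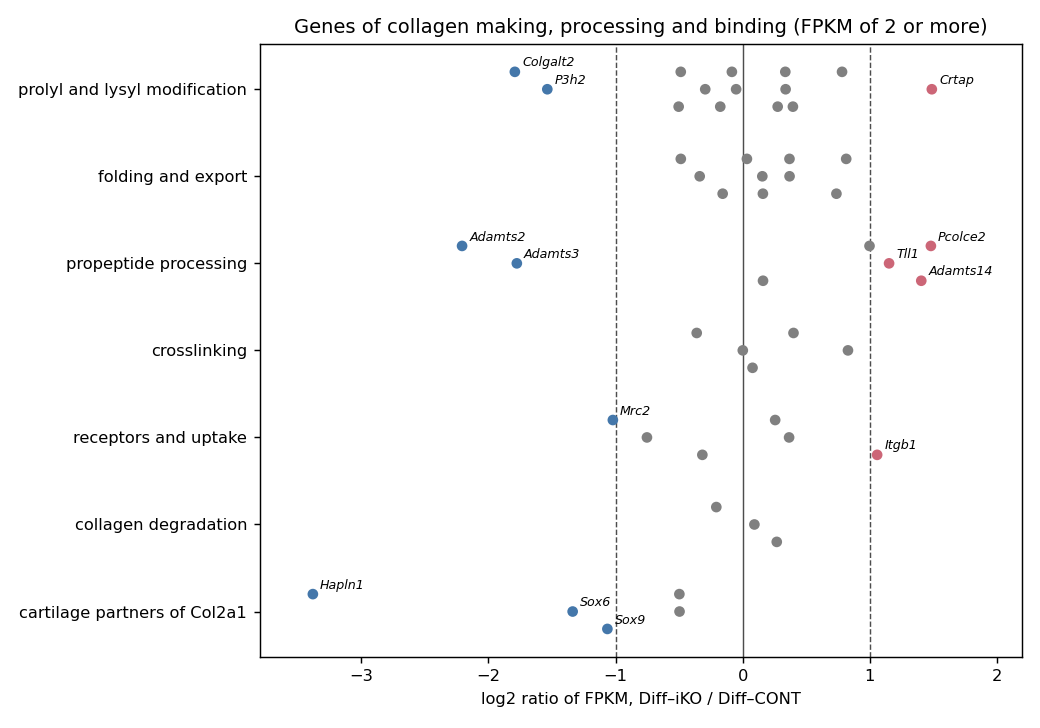
Log2 ratio of FPKM of the library labelled Diff–iKO to Diff–CONT (x axis) for the 50 pathway genes with an FPKM of at least 2 in 1 library, by list (rows), with a fold of 2 as dashed lines. Genes past the cut-off are named and coloured (5 higher, 8 lower), and propeptide processing has 3 to the right and 2 to the left.

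Of the 11 listed cartilage partners of Col2a1, 5 reached the minimum and 3 fell, beside 8.39% of all genes. Hapln1, Sox6 and Matn3 (2.47 and 1.75) reached it in Diff–CONT alone, so they had to be lower. Hapln1, the link protein of cartilage matrix, fell from 5.06 to 0.486 (log2 ratio -3.38, interval -3.78 to -3.00). Sox9 and Sox6, transcription factors that act on Col2a1 in chondrocytes, fell from 6.08 to 2.91 and from 2.37 to 0.937, and the intervals of both (-1.27 to -0.85 and -1.81 to -0.90) include a fold of 2. Other matrix genes of cartilage were low in both libraries, with Comp at 0.818 and 0.796 and Matn1 at 0.587 and 0.712. Acan, also under the minimum, was higher beyond counting error, at 0.395 and 0.946 (1.26, interval 0.87 to 1.66).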

How the data were processed

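Poly(A) RNA was sequenced as paired-end, stranded libraries from 1 µg of total RNA. The authors deposited FPKM values per gene. The submitters' processing notes name STAR (2.7.9a), mm10 and Cuffnorm of Cufflinks (2.2.1). The gene annotation and the options for counting and scaling are not given in the sources used here. Columns were assigned by name, and 0 other columns of values were present.

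The members and lists were chosen with earlier results of these data known. Folds were taken without a pseudocount, and medians with 0.1 added where the mean FPKM was 1 or more. No test was possible. Fragments were recovered from FPKM steps fitted on 10484 genes having a single RefSeq transcript of 1000 bases or more. Within 0.2 of a whole multiple lay 85.8% (Diff–CONT) and 85.7% (Diff–iKO) of low values, against 40% by chance. The fitted library scale, the number of fragments by which FPKM was divided, was 29970000 and 22350000, a ratio of 1.34, and differs from the sums over genes given above. Fragments are approximate for genes other than the 31 collagen genes with 1 RefSeq transcript. Coordinates are from GENCODE (GRCm38), promoters from RefSeq.

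The text names collagen genes that reached the minimum and, from each list, genes past the cut-off or among the 2 most abundant. Collagen genes below the minimum, Acan, Comp, Matn1, Matn3 and Snorc were named after their values were seen. Other pseudocounts, filters, folds and scalings, and shares without the most abundant gene or by fragments, were tried. Scripts were tested on simulated data with Python (3.11.15), pandas (2.3.3), numpy (2.4.6), scipy (1.17.1) and matplotlib (3.10.9).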

Additional observations from a re-analysis of the deposited data

How the results depend on the processing

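With 1 library per condition no replicate could be left out, and the labels give no replicate numbers. No paired analysis was possible because each condition had 1 library. Counts of collagen genes past the cut-off (2 higher, 6 lower) became 6 higher and 7 lower with no filter on FPKM, 7 higher and 11 lower at a fold of 1.5, and 1 higher and 3 lower at a fold of 4. Col25a1 was not counted with an FPKM of 2 in both libraries or of 5 in 1, nor Col9a1 with the former. Scaling the libraries to the same sum, which shifts every log2 ratio by -0.09, or setting the median log2 ratio to 0 added Col1a2 to the genes that fell. Scaling to the same sum also gave Col16a1 a negative ratio, and no other of the 33 signs changed under a pseudocount, scaling or summing. For all genes (833 higher, 1038 lower), an FPKM of 2 in both libraries gave 488 and 569. An FPKM of 5 gave 671 lower, no filter gave 2040 and 2073, a fold of 1.5 gave 1846 and 2177, and a fold of 4 gave 278 and 237. For the pathway lists (5 higher, 8 lower), alternatives added after seeing the data, a pseudocount of 1 gave 5 lower. An FPKM of 2 in both libraries gave 4 lower, an FPKM of 5 gave 5 lower, a fold of 1.5 gave 10 higher, and a fold of 4 gave 0 higher and 2 lower.

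The median over collagen genes (-0.07) turned to 0.0026 over the 30 genes with an FPKM of 2 in both libraries and over all 44, so its sign depends on the filter. With the same sum it was -0.16, the fibrillar median -0.41 and the basement membrane median 0.48, and with no filter the basement membrane median was 0.044, since Col4a3 and Col4a4 then enter. The share of fibrillar chains without Col1a1 was 45.2% in Diff–CONT against 24.4% in the library labelled Diff–iKO, and that of basement membrane chains without Col4a1 was 11.5% and 16.8%. By fragments in place of FPKM, fibrillar chains held 60.8% in Diff–CONT and basement membrane chains 22.6% and 32.3%. The medians of the crosslinking and degradation lists, and of all pathway lists together, changed sign with the same sum. Depth limits the genes under an FPKM of 1.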
